A study of Homo sapiens with 6 samples.

Results

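The locus described here is that of CFTR on chromosome 7, taken as every peak with its midpoint in a window of 400 kb (hg19, chr7:117000000-117400000) around the gene body (chr7:117120017-117308719, 188.7 kb, plus strand). That rule, which used position alone, found 18 of the 74158 peaks in the 3 deposited lists. They were 1 of 1510 KLF5 peaks in Calu-3, 1 of 3262 KLF5 peaks in 16HBE14o- and 16 of 69386 CEBPB peaks in Calu-3. The lists came from chromatin immunoprecipitation and sequencing (ChIP-seq) of 6 samples in 3 groups of 2. The groups were KLF5 in Calu-3, a line from a lung adenocarcinoma, KLF5 in 16HBE14o-, an immortalised bronchial epithelial line, and CEBPB in Calu-3. Neither line was treated, and both were grown in DMEM with 10% FBS. Both samples of a group were pooled into its list, so no value below has a spread between samples, no comparison between the lists has a test, and the read depth is unknown. Both 16HBE14o- KLF5 samples and the Calu-3 KLF5 sample of replicate 2 were precipitated with Santa Cruz sc-398470, and the Calu-3 KLF5 sample of replicate 1 with a rabbit anti-KLF5 antibody, so cell line and antibody cannot be told apart where the KLF5 lists differ.

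CFTR encodes the chloride and bicarbonate channel of the apical membrane of epithelial cells, and its mutation causes cystic fibrosis. The gene has a GC-rich promoter without a TATA box that is active in many cell types, and its tissue-specific expression is known to depend on elements far upstream, within introns and downstream of the gene. An element active in airway cells has been described at about the upstream distance where KLF5 and CEBPB peaks lay here. KLF5 is a zinc finger factor that binds CACCC and GC-box sequences, and CEBPB is a basic leucine zipper factor with roles in inflammation and differentiation. In the RefSeq gene table of GRCh38.p14 the protein-coding neighbours of CFTR are ASZ1 and WNT2 on the upstream side and CTTNBP2 on the downstream side, and the antisense RNA genes CFTR-AS1 and CFTR-AS2 are also listed. Exons and introns of hg19 were not used here, so peaks in the gene body are given by distance and not by intron. The neighbouring genes were not placed on hg19 either, so peaks in the flanks may lie within them and were not assigned to CFTR.

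The CFTR promoter is shown because a KLF5 peak and a CEBPB peak both lay at the gene start. It is the stretch from 250 to 51 bases before the RefSeq start (GRCh38.p14, chr7:117479775-117479974, plus strand), written 5′ to 3′ with matches to GGGTG or its reverse complement CACCC, the core of Krüppel-like factor sites, in capitals. The peaks are on hg19 and were not placed on these bases. The RefSeq start was not matched to the hg19 gene start used for peak distances, so the positions of matches and peaks cannot be lined up.
CFTR promoter: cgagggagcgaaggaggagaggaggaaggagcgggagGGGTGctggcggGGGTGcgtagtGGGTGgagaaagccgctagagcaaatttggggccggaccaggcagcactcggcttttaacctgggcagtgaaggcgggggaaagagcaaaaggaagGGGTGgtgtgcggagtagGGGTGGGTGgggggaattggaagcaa
The 300 bp RefSeq window, which runs to 50 bases after the start, held 7 matches to GGGTG on either strand, and 6 of them were in the stretch shown. They began 213, 201, 190, 94, 76, 72 and 8 bases before the start, and those at 76 and 72 share 1 base. At least 1 match was found in 59.9% of 35116 promoters of the same length, with a median of 1, and 7 or more in 90 of them (0.256%). The GC content of the window was 60.7%, against a median of 58.7% over all promoters. The GC-box core GGGCGG, present in 45.0% of promoters, and the CEBP core TTGCNNAA, present in 10.5%, had no match on either strand, which says only that these letters are not in this window.

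KLF5 was listed at different places in the 2 lines. In Calu-3 its peak lay 34.5 kb upstream of the gene start (chr7:117085347-117085626). The authors' signal there was 24.5, rank 954 of 1510 and percentile 36.9 of the Calu-3 list, where 100 is the highest peak and the median signal was 27.2. Its score was 707, on a list that ran from 540 to 1000 with a median of 953.5, and its q-value was 0.0101. This was therefore a peak of the lower part of the Calu-3 list, and it was among the 86.6% of that list with a q-value of 0.05 or less.

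In 16HBE14o- the KLF5 peak lay at the promoter (chr7:117119549-117119892), with its summit 296 bp before the gene start and its end 125 bp before it. The signal was 34.5, rank 1049 of 3262 and percentile 67.9 of the 16HBE14o- list, whose median signal was 30.1. Its score was 741, below the list's median of 820.5. Its −log10 q-value of 2.38 was the highest value in the list, but many peaks shared it, so its percentile by q-value was 83.9. In that list q-values of at most 0.05 were held by 78.9% of entries. Signal and score thus placed the peak on opposite sides of the list's median. The widths of both KLF5 peaks, 280 bp in Calu-3 and 344 bp in 16HBE14o-, carry no information on the sites, because 99.3% and 99.4% of the peaks in those lists had exactly these widths.

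Neither KLF5 peak had a counterpart in the other line. The 16HBE14o- list had nothing over the upstream site, the Calu-3 list had nothing at the promoter, and the peaks were 33.9 kb apart. Across whole lists 23.6% of Calu-3 KLF5 peaks overlapped a 16HBE14o- KLF5 peak and 11.3% the other way round, so a peak listed in 1 line only was the common case. In the window, no KLF5 peak of either list lay within the gene body or downstream of it. At unknown depth, and in lists made from both samples of a group, a site missing from a list does not show that the factor was not bound there.

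Both KLF5 peaks also stood alone within their lists. The next Calu-3 KLF5 peaks were 807.9 kb upstream and 6.32 Mb downstream of the gene start, and the next 16HBE14o- KLF5 peaks were 698.7 kb upstream and 10.8 Mb downstream. The distance to the nearest peak of the same list was 773.4 kb in Calu-3, exceeded by 21.1% of peaks with a neighbour on their chromosome, against a median of 151.8 kb. In 16HBE14o- it was 698.4 kb, exceeded by 10.4%, against a median of 37.4 kb. On the downstream side, the window was thus followed by several Mb without a listed KLF5 peak in both lines.

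CEBPB in Calu-3 was listed at both KLF5 positions, and there it gave its highest signals of the locus. Across the whole lists, 43.7% of Calu-3 and 22.4% of 16HBE14o- KLF5 peaks shared at least 1 bp with a CEBPB peak, so that overlap at 2 of 2 sites is too few to set against those shares. Seen from CEBPB, 2 of the 16 peaks overlapped a KLF5 peak of either line, against 1.76% of the whole list. They were 1 peak with Calu-3 KLF5, against 0.938% of the list, and 1 with 16HBE14o- KLF5, against 1.03%.

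At the upstream site the CEBPB peak (chr7:117085268-117085820) was 553 bp wide and covered the whole Calu-3 KLF5 peak, with summits 71 bp apart. Its signal of 17.3 was rank 391 of 69386, percentile 99.4, and its −log10 q-value was 64.1. By width it stood at percentile 99.88 of the CEBPB list. Among the 662 overlapping pairs of Calu-3 KLF5 and CEBPB peaks, 118 had a higher CEBPB signal, 10 a wider CEBPB peak and 444 a higher KLF5 signal. The median CEBPB percentile over these pairs was 96.2, so a high CEBPB peak was usual where a Calu-3 KLF5 peak overlapped CEBPB. Such an overlap was found for 43.7% of Calu-3 KLF5 peaks. The median KLF5 percentile over the pairs was 52.6. The median summit distance over those pairs was 30.0 bp, and 506 pairs had a shorter distance than this one.

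At the gene start the CEBPB peak (chr7:117118179-117120180) reached from 1838 bp before to 163 bp after the start, and its summit lay 515 bp before it. Its signal of 20.5 was the highest of the locus, rank 218 and percentile 99.7 of the list, with a −log10 q-value of 91.6. The 16HBE14o- KLF5 peak lay entirely within it, 219 bp from summit to summit, a longer distance than in 684 of the 750 overlapping pairs of 16HBE14o- KLF5 and Calu-3 CEBPB peaks, whose median was 79.0 bp. Among the same 750 pairs, 18 had a higher CEBPB signal and 0 a wider CEBPB peak. The median CEBPB percentile over these pairs was 65.2. Because this overlap is across lines, it does not show both factors on the promoter in the same cells.

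**Figure D1:**
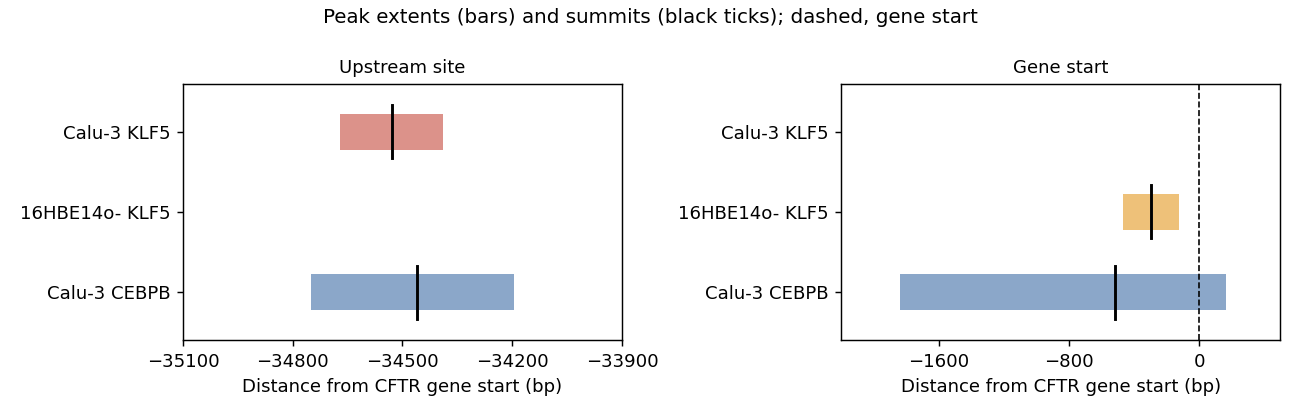
Extents of the peaks (bars) and their summits (black ticks) at the upstream site and at the gene start, by distance from the CFTR gene start in bp, with 1 row for each list. The Calu-3 KLF5 peak is seen at the upstream site alone and the 16HBE14o- KLF5 peak at the gene start alone, each within a CEBPB peak, of 553 bp and 2002 bp.

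The width of the promoter peak set it apart from nearly all others. At 2002 bp it was the second widest of 69386 CEBPB peaks, whose median width was 151 bp, and only 3 peaks were 1000 bp or wider. The others were at chr21:9825436-9827553, with 2118 bp and signal percentile 79.9, and at chr1:121484385-121485470, with 1086 bp and percentile 0.150. Both of those lie close to centromeres of hg19, where repeated sequence is common, and neither had a signal near that of the CFTR promoter peak. The peak alone made up 38.9% of the 5153 bp that CEBPB peaks covered in the window. Why it is so wide was not tested, since the lists hold no read profile. Whether its reads came from immunoprecipitated chromatin alone, or also from other DNA with the promoter sequence such as a plasmid or an amplicon, was not tested either. That limit applies to the signal, rank and q-value of this peak and to its overlap with the 16HBE14o- KLF5 peak. It also applies to the count of tiles with a pair of high CEBPB peaks given below. No read profile was seen for the upstream CEBPB peak either.

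**Figure D2:**
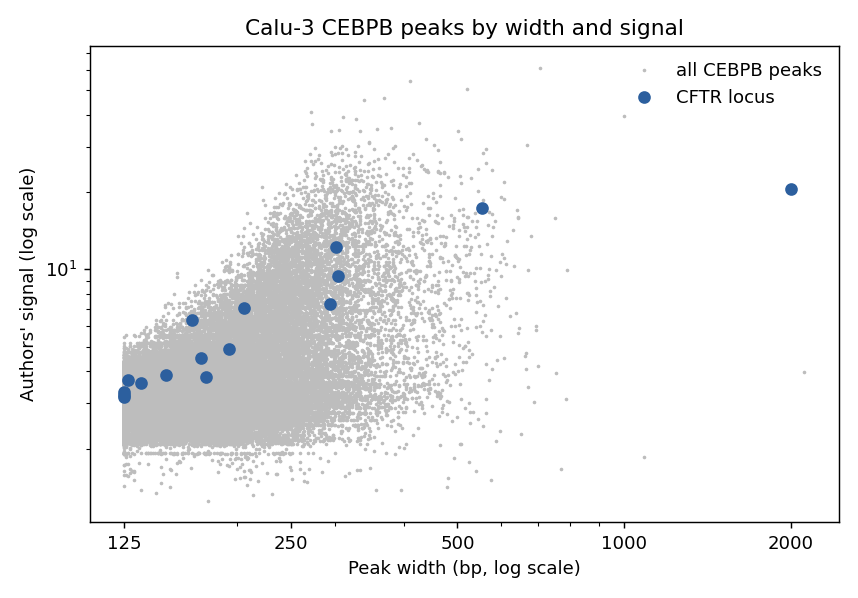
Width in bp and signal set by the authors for every Calu-3 CEBPB peak (grey) and the 16 peaks of the CFTR locus (blue), both axes on a log scale. The promoter peak, at 2002 bp and a signal of 20.5, is far to the right of other peaks with a similar signal, and the next widest CFTR peak is the upstream one at 553 bp.

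Over the whole locus, CEBPB peaks were spread from 85.9 kb upstream of the gene start to 91.2 kb past the gene end. By midpoint, 4 lay upstream of the gene start, 7 in the gene body and 5 downstream, or 3.33, 3.71 and 5.48 peaks per 100 kb. Signals were high for this list. Their median percentile was 86.6, and 7 of the 16 were in the top 10% of the list, against 10.0% of all CEBPB peaks. Above the list's median signal were 15 of the 16, against 49.1% of the list, a share below 50% because of ties. A q-value of 0.05 or less was held by 13 of the 16, against 46.3% of the list. In the adjoining 400 kb before the window, 10 CEBPB peaks had a median percentile of 41.1, and in the 400 kb after it 9 peaks had a median of 59.7. None of these neighbours was in the top 10%.

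**Figure D3:**
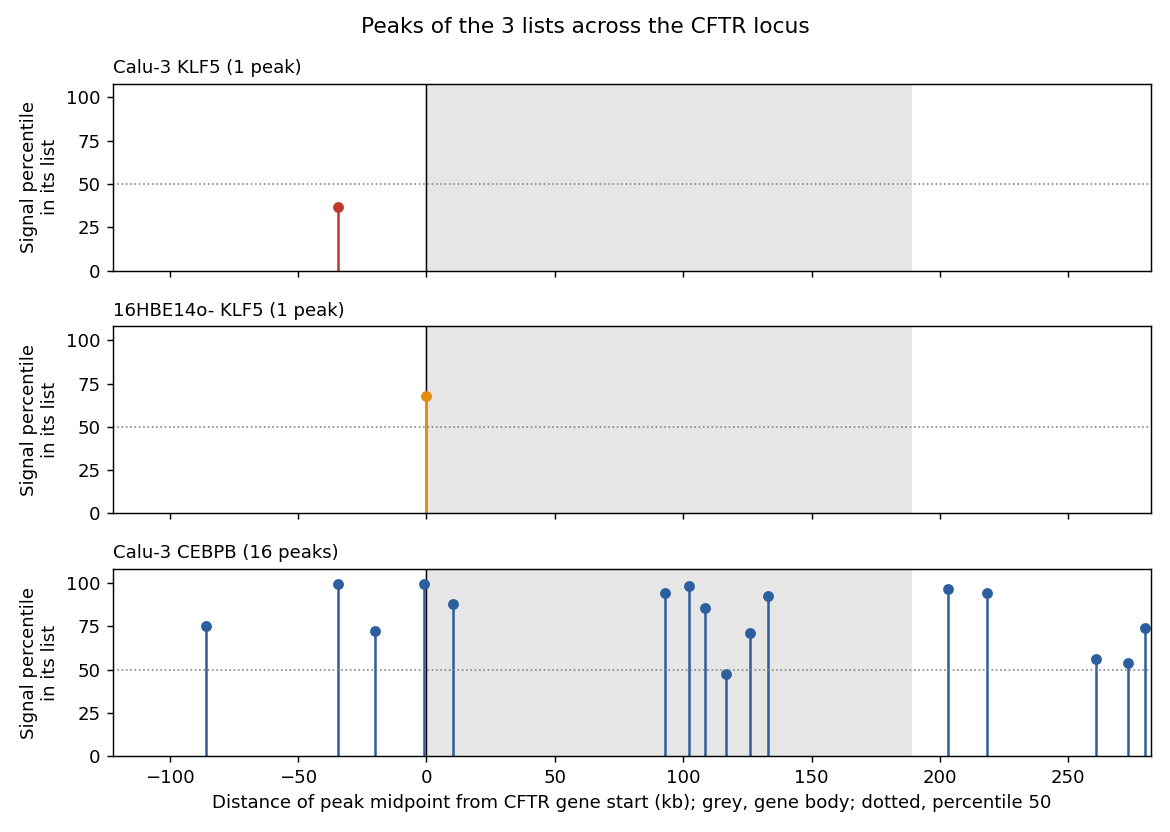
Percentile of the authors' signal within its own list for each peak, by distance of the midpoint from the CFTR gene start in kb, with 1 panel for each list and the gene body in grey. Each KLF5 list has 1 peak, both upstream of the gene, whereas 16 CEBPB peaks extend over the flanks and the gene body, 15 of them above percentile 50.

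Upstream of the gene, CEBPB peaks other than those at the KLF5 sites were moderate. A peak lay 85.9 kb before the start, between the position of the KLF5 site and the edge of the window, with a signal of 3.86 and percentile 75.2. Another lay 20.0 kb before the start, between the upstream site and the promoter, with a signal of 3.69 and percentile 72.3. The strongest peaks upstream were thus the pair already described at 34.5 kb and at the promoter, with signals of 17.3 and 20.5.

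Within the gene body, a first CEBPB peak lay 10.2 kb from the start (chr7:117130092-117130284), with a signal of 4.91 and percentile 87.8. No further peak was listed for the next 82.9 kb, the longest distance between neighbouring midpoints in the window, exceeded by 8.71% of those on chromosome 7. The other 6 peaks of the gene body then followed between 93.0 and 133 kb from the start, each within 9.38 kb of the next. Chromosome 7 had a median distance of 19.0 kb between neighbouring CEBPB peaks.

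That group of 6 in the middle and later part of the gene was led by a peak 102.4 kb from the start (chr7:117222223-117222524), 54.2% along the gene. Its signal was 12.2, rank 1227 and percentile 98.2, with a −log10 q-value of 31.5, the third highest of the locus after the promoter and the upstream site. On its upstream side, at 93.0 kb (chr7:117212904-117213197), a peak had a signal of 7.31 and percentile 94.3. The last of the group, at 133 kb (chr7:117252806-117252971), had a signal of 6.33 and percentile 92.6. These were the gene-body peaks in the top 10% of the list, and the nearest KLF5 peak of either line was at least 93.0 kb from each of them.

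The remaining gene-body peaks ranked lower. That at 108.5 kb had a signal of 4.51 and percentile 85.4, and that at 125.9 kb a signal of 3.62 and percentile 71.2. The peak at 116.5 kb was the weakest of the locus, with a signal of 3.17, percentile 47.7 and a q-value of 0.147. It was the only CEBPB peak of the gene body with a q-value above 0.05. Beyond 133 kb, no CEBPB peak was listed for 70.3 kb, a stretch that includes the end of the gene.

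Downstream of the gene, the first CEBPB peak lay 14.4 kb past the gene end (chr7:117322986-117323289) and was the strongest of that flank, with a signal of 9.43 and percentile 96.7. The next was 29.6 kb past the end (chr7:117338238-117338443), with a signal of 7.09 and percentile 93.9. These 2 peaks were thus both in the top 10% of the list, whereas the 3 farther ones were not. The peaks at 72.2 and 84.4 kb past the end had percentiles of 56.1 and 53.9 and q-values of 0.0729 and 0.0893. The peak at 91.2 kb had percentile 74.0 and was the last inside the window, with its midpoint just before the edge. The nearest CEBPB peaks outside were 8.11 kb before and 8.19 kb after the window, at percentiles 43.2 and 54.3.

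**Figure D4:**
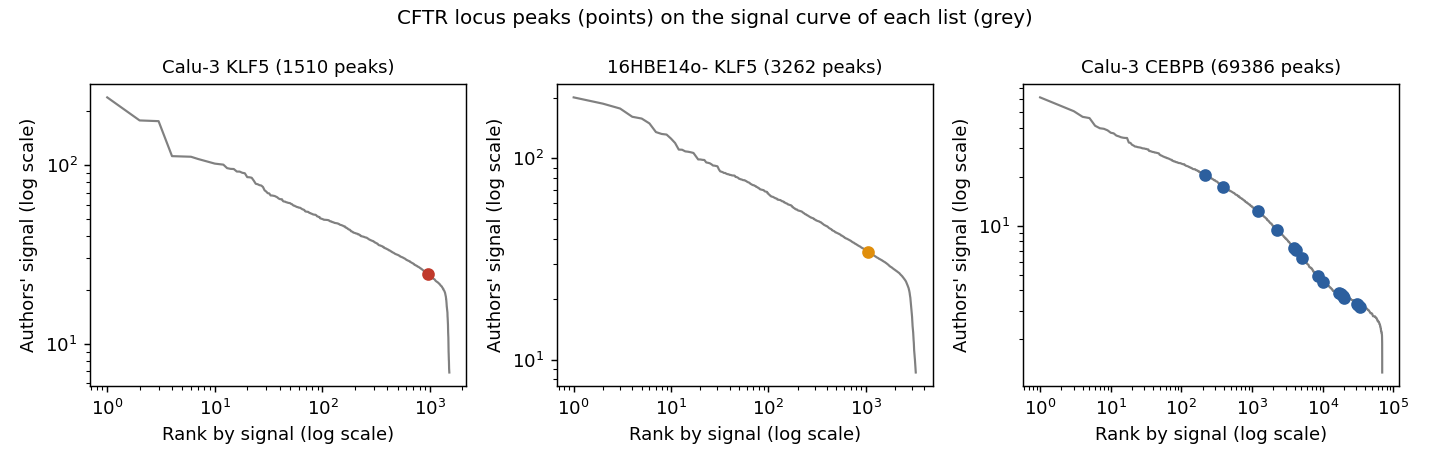
Authors' signal against rank for all peaks of each list (grey curves, log axes), with the CFTR locus peaks as points. The KLF5 points sit at rank 954 of 1510 in Calu-3 and 1049 of 3262 in 16HBE14o-, and the CEBPB points run from rank 218 down to rank 34088 of 69386.

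Of the 7 CEBPB peaks in the top 10% of the list, 5 had no KLF5 peak of either line, namely 3 in the gene body and 2 downstream. Over the whole list, 7.82% of the CEBPB peaks of that class shared a base with a KLF5 peak, so a high CEBPB signal without KLF5 was the usual case. In all, 14 of the 16 CEBPB peaks at the locus had no KLF5 peak, and over the whole list only 1.76% shared a base with one.

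The number of peaks in the window was compared with that in 7466 tiles of 400 kb over the genome. At least 1 Calu-3 KLF5 peak was found in 12.8% of tiles and at least 1 16HBE14o- KLF5 peak in 20.7%, and 6.91% held both, as this window did. Among those 516 tiles, 44.0% had no KLF5 site shared by the 2 lines. Exactly 1 peak of each KLF5 list was found in 148 tiles, not overlapping in 89, and in 16 of these, CFTR included, both KLF5 peaks met a Calu-3 CEBPB peak. That description was built from the peaks seen at CFTR, so its low count is no measure of how unusual the locus is. It shows only that the arrangement was also seen at other loci.

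For CEBPB, 16.5% of tiles held 16 or more peaks, with a median of 9 and a maximum of 73, and on chromosome 7 it was 23.7% of 397 tiles. With only the CEBPB peaks that had a q-value of 0.05 or less, the window kept 13, and 2.52% of tiles held as many. The window was therefore moderately rich in CEBPB peaks of any kind and richer in those with low q-values. A pair of CEBPB peaks at least as high as the upstream one was found in 23 tiles (0.308%), a count chosen after the values had been seen.

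**Figure D5:**
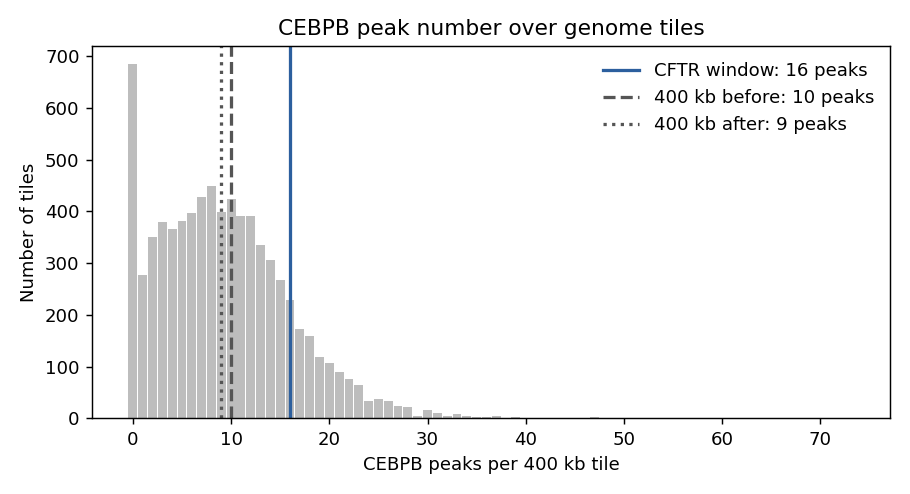
Number of 400 kb genome tiles (vertical axis) by how many Calu-3 CEBPB peaks they hold (horizontal axis), with lines for the CFTR window and the 400 kb on each side of it. The CFTR window, with 16 peaks, is to the right of its neighbours, with 10 and 9, and of the median tile, with 9.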

How the data were processed

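The deposited data were 1 peak list per group, each made from both samples, per the series' design text. They were named as IDR (irreproducible discovery rate) peaks on hg19, per the file headers. The aligner, peak caller and control library are not given in the sources used here. For every peak the authors deposited a signal and a score (how either was normalized is not stated), a −log10 q-value and, for CEBPB, a −log10 p-value. These values are the authors' own and were used only to rank, filter and describe peaks within 1 list. Scores ran from 540 to 1000 in both KLF5 lists and from 20 to 2809 in the CEBPB list. For the 16 CEBPB peaks of the window the score followed the −log10 p-value, such as 691 at 69.19 and 56 at 5.64. The score was therefore not on the same scale in all lists. A q-value of 0.05 or less was held by 46.3% of CEBPB peaks, against 86.6% and 78.9% of the KLF5 lists. The name IDR peaks thus does not show that the lists were filtered alike, and CEBPB percentiles and shares are relative to a list with many weak entries. Starts were converted to 1-based positions. Percentiles are midranks of the signal. Peaks overlapped when they shared at least 1 bp. Genome tiles of 400 kb were aligned to the window and lay between the first and last peak of a chromosome. The promoter, 1 gene matched by symbol, came from RefSeq (GRCh38.p14) and was searched on both strands. All members of the window are described. The rule for named genes allowed other ion transport genes only with an hg19 annotation, which was not used here, so none was placed. The members and lists were chosen with earlier results of these data known. Alternatives varied the window, the q-value limit, the tiles, the ranking value, the overlap rule and the merging of entries. Python 3.11.15, numpy 2.4.6, scipy 1.17.1, pandas 2.3.3 and matplotlib 3.10.9 were used, and the overlap, ranking and tiling functions were tested on simulated data.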

Additional observations from a re-analysis of the deposited data

How the results depend on the processing

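The gene body alone held 0 Calu-3 KLF5, 0 16HBE14o- KLF5 and 7 CEBPB peaks. With 50 kb on each side of the gene, 12 CEBPB peaks were counted, and with a q-value of 0.05 or less 13. When summits had to lie within 100 bp, the promoter overlap between 16HBE14o- KLF5 and Calu-3 CEBPB was lost (0 peaks in either direction), whereas the upstream overlap in Calu-3 was kept under this and the other overlap rules. The share of tiles with at least as many peaks as the locus was 11.7% for Calu-3 KLF5, 18.9% for 16HBE14o- KLF5 and 2.52% for CEBPB with a q-value of 0.05 or less. Among tiles with at least 1 peak of any list it was 14.1%, 22.7% and 18.2%. The median CEBPB percentile ranged from 83.9 to 87.5 over 4 alternatives, 3 of them chosen after seeing the data, and was 85.4 without the promoter peak. Ranking by q-value moved the percentiles of single peaks by -8.58 to 16.1 points. It placed the 16HBE14o- promoter KLF5 peak at 83.9, where many peaks share the highest −log10 q-value. No replicate could be left out and no paired analysis was possible because each list pools both samples of its group. Unknown depth limits every statement on a missing peak.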
